A study of Mus musculus with 6 samples.

Results

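Mucins and trefoil factors are the gel-forming, cell-surface and repair proteins of the mucous lining. The 10 genes described here were chosen by symbol, with earlier results of these data known: Muc1, Muc2, Muc3, Muc4, Muc13, Muc20, Mucl3, Tff1, Tff2 and Tff3. All 10 were found among the 49585 gene identifiers of the count tables, and all 10 passed the filter on low counts that left 13759 genes for testing. They were grouped by where the normal gut makes them. The intestinal type holds 4 genes (Muc2, Muc3, Muc13 and Tff3), the gastric type 2 genes (Tff1 and Tff2), and the remaining 4 (Muc1, Muc4, Muc20 and Mucl3) were kept apart as other mucins of the set. Muc4 was placed there although absorptive cells of the intestine also carry it. Muc1, a mucin of many glandular epithelia, was placed there rather than with the gastric type.

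The RNA came from tumoroids, which are three-dimensional cultures in Matrigel, grown from intestinal adenoma cells of C57BL/6 mice. Both groups carried APC min/+, an Apc allele that gives mice intestinal adenomas, and Villin-Cre, a Cre recombinase driven by a promoter active in the intestinal epithelium. The knock-out group (n = 3 libraries) was IKKa FL/FL, with floxed alleles of Chuk, the gene for the kinase IKKa, and the wild-type group (n = 3) was IKKa +/+. Both grew in the same medium, which held Noggin, R-spondin, EGF, basic FGF and a ROCK inhibitor. The sources used here do not give the ages of the mice, nor whether replicates were separate mice or cultures, so the spread that p-values are set against may be technical.

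In the normal intestine, goblet cells secrete MUC2, which swells into the mucus gel, together with the trefoil peptide TFF3. Absorptive cells carry membrane-bound mucins such as MUC3, MUC4 and MUC13 on their surface, where the sugar-coated extracellular domains form the glycocalyx. The stomach uses other products: TFF1 is made with MUC5AC by surface pit cells, and TFF2 with MUC6 by neck and gland cells. Trefoil peptides are small, compactly folded and secreted, and help an injured epithelium to close.

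Library totals ran from 20749747 to 31875723 counts. Chuk, the targeted gene, was at 101 ± 5.21 CPM in wild-type libraries and 29.4 ± 5.27 CPM in knock-out libraries (mean ± SD, n = 3 each), lower in 3 of 3. CPM is the count relative to library size after scaling by the TMM method. Knock-out replicate 2 stood apart from the other knock-out libraries, with a chi-square per degree of freedom of 39.7 and 40.2 against them, while they had 5.86 between themselves. The female-specific Xist had 95406 wild-type and 6 knock-out counts, and the Y-linked Eif2s3y had 0 and 7164, so that genotype and sex cannot be told apart. Mitochondrial transcripts made up 6.18% to 7.59% of wild-type and 2.15% to 3.46% of knock-out counts; the part of this in the results was not tested.

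Of the 10 genes, 4 were lower and 4 higher in the knock-out by edgeR's quasi-likelihood test at a Benjamini-Hochberg adjusted p of 0.05 over all genes tested, and these 8 were the ones whose libraries did not overlap between genotypes. All 4 intestinal-type genes were lower, both gastric-type genes were higher, and of the other 4, Muc20 and Mucl3 were higher while Muc1 and Muc4 did not pass. Absorptive cells of the intestine also carry MUC4, so the count and median of the intestinal type depend on keeping Muc4 apart. Muc1, a mucin of many glandular epithelia, was also kept apart, and the count and median of the gastric type depend on that choice. The background was wide: 57.4% of all genes tested were called in either direction, 27.1% lower and 30.3% higher, and 63.1% had libraries that did not overlap between the genotypes. Large differences were rarer, since 14.7% of all genes were called with a fitted fold change of at least 4, against 7 of the 10 genes. The 10 genes and their types were chosen with earlier results of these data known, so this comparison is not an independent test. The median log2 fold change, knock-out over wild type, was -3.94 over the intestinal type, 7.08 over the gastric type and 2.68 over the other 4, beside 0 over all genes tested.

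**Figure D1:**
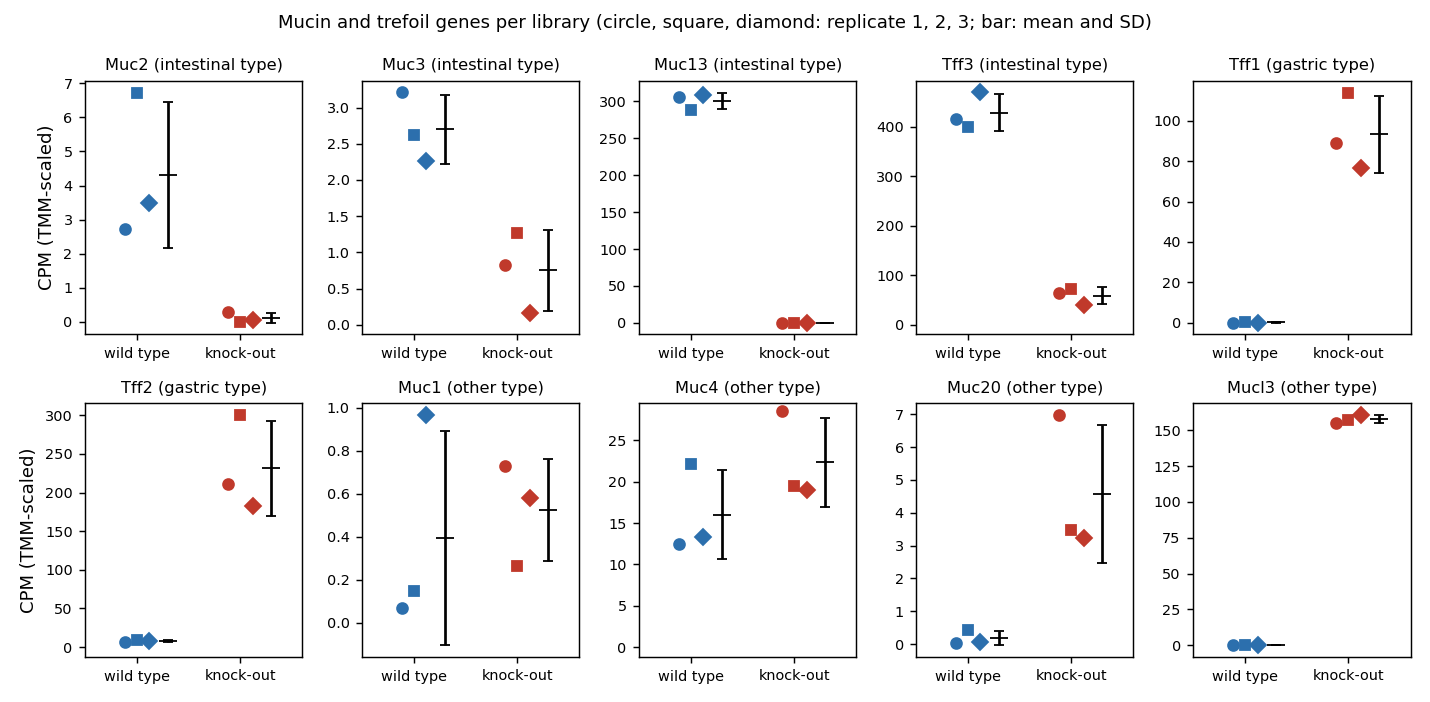
TMM-scaled CPM (y axis, linear, a separate scale per gene) of the 10 genes in each library, with wild type in blue and knock-out in red; symbols mark replicates 1, 2 and 3, and bars give the mean and SD of 3 libraries. The libraries of the 2 genotypes are separate in 8 panels and overlap for Muc1 and Muc4.

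**Figure D2:**
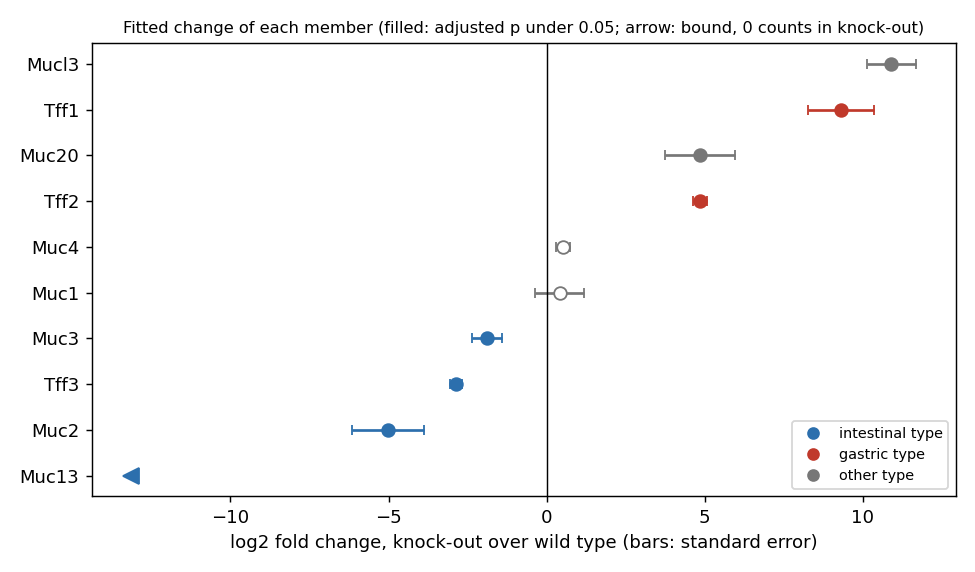
Fitted log2 fold change, knock-out over wild type (x axis), with its standard error, for each of the 10 genes (y axis); filled symbols passed the adjusted p of 0.05 and the arrow marks a bound for Muc13, which had 0 counts in the knock-out. Mucl3 and Tff1 lie farthest to the right at 10.91 and 9.31, and Muc3 is the intestinal-type gene nearest to 0 at -1.89.

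Sequences upstream of the start are shown for 4 genes that moved in opposite directions: Muc2 and Muc13, which were lower, and Muc20 and Mucl3, which were higher. Each is the 250 bases before the RefSeq start in GRCm38.p6, read on the gene's own strand, from the 7 of the 10 genes that matched the promoter table. The windows shown end at starts that RefSeq and GENCODE share; for Muc13 RefSeq lists a second start at 33794489, which differs from GENCODE's and whose window is not printed. Capitals mark matches, on either strand, to the TATA box (TATAAA), the CDX motif (TTTATNG), the GATA motif (AGATAA), the FOXA motif (TGTTTAC), the AP-1 motif (TGANTCA), the TEAD motif (GGAATG) and the kappa-B motif of NF-kB. The Muc2 window is chr7:141690090-141690339 (plus strand), the Muc13 window chr16:33793787-33794036 (plus), the Muc20 window chr16:32797436-32797685 (minus) and the Mucl3 window chr17:35643696-35643945 (minus).
Muc2: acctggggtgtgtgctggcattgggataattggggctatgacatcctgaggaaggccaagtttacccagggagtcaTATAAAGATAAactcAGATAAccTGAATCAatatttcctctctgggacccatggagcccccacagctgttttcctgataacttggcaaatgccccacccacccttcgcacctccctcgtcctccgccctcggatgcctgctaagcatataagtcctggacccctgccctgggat
Muc13: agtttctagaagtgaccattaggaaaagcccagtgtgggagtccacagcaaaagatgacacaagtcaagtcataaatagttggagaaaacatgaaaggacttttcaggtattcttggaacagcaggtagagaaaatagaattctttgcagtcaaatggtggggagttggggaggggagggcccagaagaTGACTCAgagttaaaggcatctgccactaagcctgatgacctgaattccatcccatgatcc
Muc20: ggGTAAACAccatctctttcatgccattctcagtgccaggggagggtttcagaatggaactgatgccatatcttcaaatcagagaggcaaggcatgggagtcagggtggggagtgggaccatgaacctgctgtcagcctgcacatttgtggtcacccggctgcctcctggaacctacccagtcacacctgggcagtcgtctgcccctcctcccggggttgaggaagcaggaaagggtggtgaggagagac
Mucl3: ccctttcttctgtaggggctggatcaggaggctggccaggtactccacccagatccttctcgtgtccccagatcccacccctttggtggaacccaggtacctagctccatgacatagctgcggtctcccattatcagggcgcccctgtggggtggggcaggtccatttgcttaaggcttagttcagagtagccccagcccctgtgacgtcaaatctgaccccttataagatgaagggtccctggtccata

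The Muc2 window held the TATA box letters at 174 to 169 bases before the start, the GATA motif at 169 to 164 and again at 159 to 154, and the AP-1 motif at 151 to 145; the first GATA match shares a base with the TATA match. The Muc13 window shown had a single AP-1 match at 61 to 55 bases before its start, and the window of its second RefSeq start had another at 179 to 173. Muc20 had a FOXA match on the opposite strand at 248 to 242. The AP-1 letters read the same pattern on both strands. None of the 7 motifs was found in the Mucl3 window. Among 32851 mouse promoters of this length, 12.4% held the TATA letters, 9.81% the CDX, 9.99% the GATA, 3.17% the FOXA, 6.75% the AP-1, 12.6% the TEAD and 7.25% the kappa-B motif. These matches describe the letters only.

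Among the intestinal type, Muc13 differed most. It encodes a membrane mucin of the intestinal brush border and lies at chr16:33794037-33819934 (plus strand, GRCm38). Its counts were 9146, 5948 and 8291 in wild-type replicates 1, 2 and 3 and 0 in each knock-out library. In CPM the wild-type libraries held 306, 288 and 308, a mean of 301 ± 11.02 (SD, n = 3). With 3 counts over the pooled knock-out libraries as the floor, Muc13 was at least 8996-fold lower in the knock-out, with a Benjamini-Hochberg adjusted p of 2.58e-12 by edgeR's quasi-likelihood test. The antisense gene Gm15657, which overlaps 6.06% of its exon bases, had 4 counts over the wild-type libraries together and 0 in the knock-out.

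Tff3, the trefoil peptide of goblet cells at chr17:31125306-31129646 (minus strand), had the highest level of the 10 genes in the wild type. The wild-type libraries held 415, 399 and 470 CPM and the knock-out libraries 63.4, 72.8 and 40.5 CPM. Every knock-out library was thus below every wild-type library, yet Tff3 RNA was far from gone: the means were 58.9 ± 16.6 and 428 ± 37.6 CPM (SD, n = 3 each). The fitted log2 fold change was -2.87 (SE 0.18, edgeR adjusted p 2.77e-06), or 7.29-fold lower.

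Muc2, the gel-forming mucin of the intestine at chr7:141690340-141754693 (plus strand), was a low-count gene in both groups. The wild-type libraries held 81, 139 and 94 counts (2.71, 6.73 and 3.49 CPM) and the knock-out libraries 9, 0 and 2 (0.284, 0 and 0.0645 CPM). The knock-out libraries all lay below the wild type, at a log2 fold change of -5.01 (SE 1.13, edgeR adjusted p 1.59e-05), or 32.2-fold lower. Most knock-out counts came from replicate 1, and without that library the log2 fold change was -6.71. Tff3, which goblet cells secrete together with MUC2, was thus measured from far more counts than Muc2 in both genotypes.

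Muc3, a membrane mucin of absorptive cells, lies at chr5:137134922-137149322 (minus strand). It held 3.21, 2.62 and 2.27 CPM in the wild-type libraries and 0.821, 1.27 and 0.161 CPM in the knock-out. The lowest wild-type library was above the highest knock-out library, and the log2 fold change was -1.89 (SE 0.48, edgeR adjusted p 0.00264), with values from -2.48 to -1.40 when a library was left out. On chromosome 5 the median log2 fold change over 685 genes was 0.40, with 58.4% of the genes higher and 10.1% lower in the knock-out, so Muc3 moved against its chromosome. The neighbouring paralog Muc3a had 220, 129 and 172 counts in the wild type (6.67 ± 0.610 CPM) and 0 in each knock-out library, at least 200.4-fold lower (edgeR adjusted p 3.72e-07). Since the genes are paralogs, how reads were split between Muc3 and Muc3a is uncertain.

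Both gastric-type genes were higher in the knock-out. Tff1, the peptide of gastric pit cells at chr17:31161395-31165277 (minus strand), had 2822, 3043 and 2375 counts in knock-out replicates 1, 2 and 3, against 2, 9 and 0 in wild-type replicates. In CPM these were 89.1, 114 and 76.6 against 0.0670, 0.436 and 0. No wild-type library came near a knock-out library. The log2 fold change was 9.31 (SE 1.04, edgeR adjusted p 1.09e-10), or 634-fold higher. Because the wild-type level rests on so few counts, the value was 11.20 without wild-type replicate 2 and 8.71 without wild-type replicate 3. The antisense gene Gm15318 overlaps 31.44% of the Tff1 exon bases and was also higher, at 3.83 against 0.0743 CPM, the latter from 0, 0 and 6 counts. Whether the counting used strand is not given in the sources used here, so reads over the exon bases that the pair shares cannot be told apart.

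Tff2, the peptide of gastric neck cells at chr17:31141049-31144282 (minus strand), was measured well in both groups. The knock-out libraries held 211, 301 and 182 CPM and the wild-type libraries 7.10, 9.68 and 7.61 CPM. The log2 fold change was 4.85 (SE 0.23, edgeR adjusted p 9.32e-08), or 28.8-fold higher, and every knock-out library was above every wild-type library.

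The 3 trefoil genes lie side by side on chromosome 17, with their starts within 35.6 kb, and they changed in different directions. Their combined counts overlapped between the genotypes, at 9272 to 13018 per knock-out library and 8446 to 12871 per wild-type library. In wild-type replicates 1, 2 and 3, Tff3 took 98.3%, 97.5% and 98.4% of the trefoil counts. In the knock-out replicates it took 17.4%, 14.9% and 13.5%. Tff2 took 1.68%, 2.37% and 1.59% of them in wild-type and 58.1%, 61.7% and 60.8% in knock-out replicates. Tff1 made up the rest, 24.5%, 23.4% and 25.6% in the knock-out. In the wild type Tff1 took 0.0159% and 0.107% in replicates 1 and 2, and 0 of 12871 counts in replicate 3, where the exact 95% upper limit was 0.0287%. Exact binomial 95% intervals, which cover counting error only, were 12.8% to 14.2% for the lowest knock-out share of Tff3 and 97.2% to 97.8% for the lowest wild-type share. Within the knock-out, the CPM of all 3 genes, unlike their shares, was highest in replicate 2 and lowest in replicate 3. Without replicate 2, the library that stood apart, the log2 fold changes were 9.12 for Tff1, 4.59 for Tff2 and -3.07 for Tff3.

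**Figure D3:**
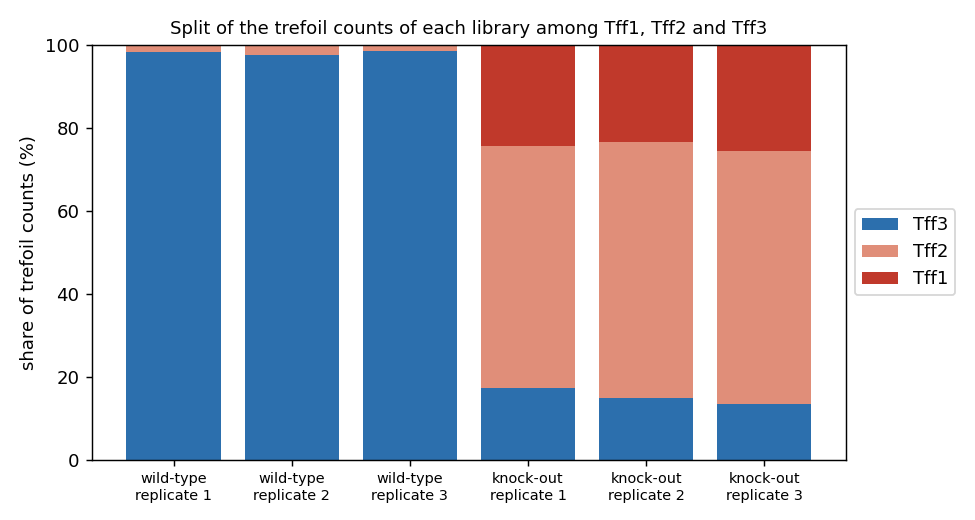
Share of the combined Tff1, Tff2 and Tff3 counts (y axis, percent) taken by each gene in each of the 6 libraries (x axis). Tff3 fills 97.5% to 98.4% of the wild-type bars and 13.5% to 17.4% of the knock-out bars, where Tff2 takes 58.1% to 61.7%.

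Of the other 4 genes, Mucl3 had the largest difference. This mucin-like gene at chr17:35635752-35643695 (minus strand) held 155, 157 and 161 CPM in the knock-out libraries and 0.100, 0 and 0.111 CPM in the wild type, from 4915, 4201 and 4978 against 3, 0 and 3 counts. The spread within the knock-out was small, at 158 ± 2.76 CPM (SD, n = 3). The log2 fold change was 10.91 (SE 0.78, edgeR adjusted p 1.57e-15), or 1925-fold higher. Sfta2, whose gene body spans Mucl3 on the opposite strand without sharing exon bases, was at 7.37 against 3.27 CPM.

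Muc20, a membrane mucin known from kidney and other epithelia, lies at chr16:32777419-32797435 (minus strand). It had 221, 93 and 100 counts in the knock-out libraries (6.98, 3.48 and 3.23 CPM) and 1, 9 and 2 in the wild type (0.0335, 0.436 and 0.0743 CPM). Replicate 1 was the highest knock-out library, and all 3 lay above the wild type, at a log2 fold change of 4.85 (SE 1.10, edgeR adjusted p 1.8e-05) or 28.9-fold. Without wild-type replicate 2 the value was 6.34.

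Muc4, a large membrane mucin that can bind the receptor ERBB2, lies at chr16:32735886-32782391 on the opposite strand and overlaps Muc20 by 4973 bases, of which 627 are exonic in both. The shared exon bases are 15.57% of those of Muc20. The strand setting of the counting is not given, so reads over these bases cannot be told apart. Muc4 held 28.6, 19.5 and 18.97 CPM in the knock-out libraries and 12.5, 22.2 and 13.3 CPM in the wild-type libraries, so the groups overlapped. The log2 fold change of 0.52 (SE 0.23) did not pass, with an adjusted p of 0.0798 by edgeR's quasi-likelihood test. It passed with no filter on low counts (edgeR adjusted p 0.00192), by limma voom (adjusted p 0.0499) and without wild-type replicate 2 (edgeR adjusted p 0.00722, log2 fold change 0.80). Muc1, the transmembrane mucin of many glandular epithelia at chr3:89229057-89233381 (plus strand), had only 23, 7 and 18 counts in knock-out libraries, against 2, 3 and 26 in wild-type libraries. Wild-type replicate 3 was higher than every knock-out library, and the log2 fold change of 0.42 (SE 0.77) had an edgeR adjusted p of 0.666. Without wild-type replicate 3 it was 2.39 with an adjusted p of 0.0535, and without wild-type replicate 1 it was -0.18.

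Levels were compared between genes as CPM per kilobase of exon. The lengths behind Muc2 and Muc3 are doubtful: GENCODE tags Muc2 as a fragmented locus, its Muc3 model has only 1943 exon bases, and RefSeq starts Muc3 at 137166046 rather than 137149322, so the places of these genes in the order are uncertain. In the wild type the order ran from Tff3 (868 ± 76.2, SD, n = 3) through Muc13 (99.0 ± 3.63) and Tff2 (13.9 ± 2.34) to Muc3 (1.39 ± 0.247) and Muc4 (1.36 ± 0.457). Muc3 and Muc4 overlapped, and from Muc2 (0.605 ± 0.299) downward each gene overlapped the next through Tff1, Muc1, Muc20 and Mucl3. In the knock-out, Tff2 led with 396 ± 106, followed by Tff1 (133 ± 27.0) and Tff3 (119 ± 33.7), whose libraries overlapped. Mucl3 came next with 60.4 ± 1.06, clear of Tff3 above it and of Muc4 (1.90 ± 0.459) below. Muc4 overlapped Muc20 (1.13 ± 0.520), Muc3 (0.387 ± 0.288) overlapped Muc1 (0.223 ± 0.101), and Muc2 (0.0163 ± 0.0209) overlapped Muc13 at 0. Thus Mucl3 was last in the wild type and the most abundant mucin of the 10 genes per length in the knock-out, where Muc13, the most abundant mucin of the wild type, was last.

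Most tested genes next to the members were higher in the knock-out and few were lower, beside 30.3% higher and 27.1% lower over all genes tested. Around the trefoil cluster, every other tested gene with a start within 100 kb was higher in the knock-out: Gm15318, the protease gene Tmprss3 at 0.990 against 0.187 CPM (edgeR adjusted p 0.00828), and the lipid transporter gene Abcg1 at 5.50 against 1.03 CPM (edgeR adjusted p 7.41e-06). Tff3 was the only tested gene of that stretch that was lower. Itgb5, an integrin subunit gene with its start 35.6 kb from that of Muc13, was 5.86-fold higher, at 21.7 against 3.69 CPM. Next to Muc3, Trim56 was 2.43-fold higher, at 94.4 against 39.1 CPM, while Muc3 and Muc3a were lower. On their chromosome 5, 58.4% of the genes were higher and 10.1% lower. Near Mucl3, Gm20483 (4.87 against 0.252 CPM), the collagen receptor gene Ddr1 (332 against 123 CPM), Vars2 and Sfta2 were higher, Gm9573 was at 0.486 CPM against 0 (at least 12.7-fold higher), and Gtf2h4 was lower at 30.7 against 40.1 CPM, a call lost under several alternatives. Around Muc4 and Muc20, Tnk2, Rubcn and Fyttd1 were higher and Smbd1 lower, at 0.306 against 1.27 CPM, a call that was likewise lost under several. Of 14 tested neighbours of Muc1, 7 were higher, among them the ephrin genes Efna1 and Efna3, and 6 did not pass; Dpm3 was lower with an edgeR adjusted p of 0.0463, a call also lost under several alternatives.

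**Figure D4:**
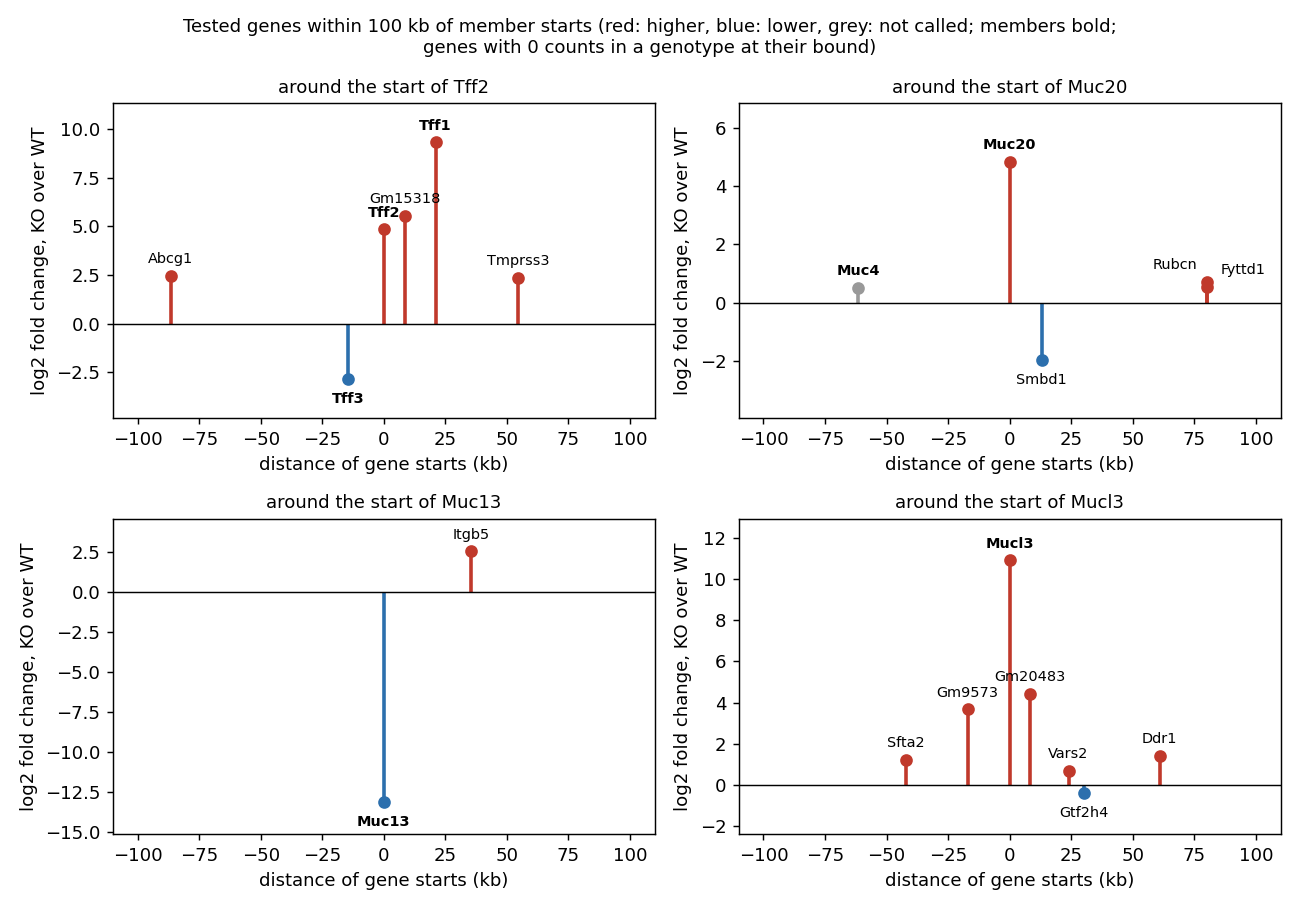
Fitted log2 fold change, knock-out over wild type (y axis), of tested genes against the distance of their starts from that of Tff2, Muc20, Muc13 and Mucl3 (x axis, kb); red is higher, blue lower, grey did not pass, and genes with 0 counts in a genotype are drawn at their bound. Tff3 at -2.87 stands next to Tff2 at 4.85 and Tff1 at 9.31.

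Over all genes tested, those with the smallest Euclidean distance to Muc13 in log2(CPM + 0.5) across the 6 libraries were Reg3g, an antimicrobial lectin gene (distance 0.686, 0.0447 ± 0.0488 against 383 ± 50.3 CPM), Smoc2 (distance 1.13) and Cdo1 (distance 1.55). Those nearest to Tff1 were Slco3a1, an organic anion transporter gene (distance 0.680, 111 ± 5.26 against 0.210 ± 0.241 CPM), Fjx1 (distance 0.695) and Wnt7a (distance 1.01).

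Other mucin genes ranged from silent to well expressed. Of 13 other mucin and sialomucin genes chosen for a list, 7 had 0 counts in every library, including Muc5b and Muc6, the gland mucin that accompanies TFF2 in the stomach. The list summed to 444.1 to 471.5 CPM per wild-type library and 433.4 to 501.8 CPM per knock-out library. Muc5ac, the pit-cell mucin that accompanies TFF1, had 10, 3 and 0 counts in knock-out replicates 1, 2 and 3, none in the wild type, and was too low to test. Of the 5 tested, 3 were higher and 2 lower, with a median log2 fold change of 0.88, beside 30.3% higher and 27.1% lower over all genes tested. The sialomucin genes Podxl and Parm1 were 2.79-fold and 1.85-fold higher, at 109 and 91.8 CPM in the knock-out. Parm1 lies on chromosome 5, where 58.4% of the genes were higher and 10.1% lower. The membrane mucin Muc16 had 32, 17 and 21 counts in knock-out replicates 1, 2 and 3 and none in the wild type, at least 20.2-fold higher (edgeR adjusted p 0.00105). Muc3a, given above, and the endolyn gene Cd164 were lower, the latter at 261 against 362 CPM.

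Enzymes that build the O-linked sugars of mucins were split. Of 25 tested identifiers, 11 were higher, 8 lower and 6 did not pass, with a median log2 fold change of 0.07. The shares over all genes tested were 30.3% higher and 27.1% lower. B4galnt2, which adds the terminal sugar of the Sda antigen, was at 138 ± 9.87 CPM in the wild type and had 0 counts in the knock-out (at least 4124-fold lower). The main identifier of St6galnac2, a sialyltransferase gene that the tables list under 2 identifiers, was lower at 0.113 against 50.3 CPM, from 1, 3 and 6 counts in the knock-out libraries. In contrast, the sialyltransferase gene St3gal4 was 4.82-fold higher, at 91.5 against 18.9 CPM.

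Genes for goblet mucus assembly and release mostly fell. Of 21 tested, 14 were lower, 5 higher and 2 did not pass, with a median log2 fold change of -1.92. Over all genes tested, 27.1% were lower and 30.3% higher. Fcgbp, whose product is bound to the MUC2 gel, was at 2.71 against 612 CPM, 226-fold lower. Agr2, the disulfide isomerase needed for MUC2 folding, was at 1.48 against 68.2 CPM, 46.4-fold lower. Nlrp6, which takes part in goblet cell secretion, was at 114 ± 16.7 CPM in the wild type and had no counts in the knock-out, at least 3444-fold lower. The secretory lineage factors Atoh1 and Spdef, singled out after their values were seen, also had 0 counts in the knock-out, against 519 and 276 in the wild type. The 5 that rose, named for the same reason, were Bcas1, Sytl2, Vamp8, Rep15 and Foxa1, and those that did not pass were Ern2 and Foxa2.

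Other gastric epithelial genes did not all follow Tff1 and Tff2. Of 12 tested, 6 were higher, 3 lower and 3 did not pass, with a median log2 fold change of 1.38. Over all genes tested, 30.3% were higher and 27.1% lower. The stem cell antigen gene Psca (42.6 against 1.17 CPM), the pit-cell protease gene Ctse (306 against 3.13 CPM) and the sulfotransferase gene Sult1c2 (60.1 against 6.16 CPM) were 37.6-fold, 101.5-fold and 9.61-fold higher. Those that fell were Gkn3, Bhlha15 and Atp4a, named because there were only 3. All were low, with 1, 13 and 22 knock-out counts against 308, 287 and 88 in the wild type. Defining gastric genes were missing or near 0: Sox2, Gif, Gkn2 and Atp4b had 0 counts in every library, Gkn1 had 7 knock-out and 3 wild-type counts, and the pepsinogen gene Pgc had 0 and 14. The summed level of the list was 138 to 164 CPM in wild-type and 592 to 615 CPM in knock-out libraries. Most of the wild-type sum came from Foxq1, named for that reason, which did not pass at 115 against 108 CPM. The largest part of the knock-out sum came from Ctse.

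All 13 transcription factor genes listed as regulators of intestinal identity passed the test, 9 lower and 4 higher, with a median log2 fold change of -1.45. The shares over all genes tested were 27.1% lower and 30.3% higher. Cdx2, a main factor of intestinal fate, was at 20.6 against 193 CPM, 9.39-fold lower. Isx, an intestine-specific homeobox gene, was 274-fold lower, at 0.186 against 53.2 CPM. Gata6 was 172.5-fold higher, at 25.3 against 0.131 CPM, and 8.15 on the log2 scale without wild-type replicate 1, beside 7.43 with all libraries. The other 3 that rose were Klf4, Klf5 and Creb3l3.

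Receptors, proteases and lectins that interact with mucins or trefoil peptides also differed in direction. Of 14 tested, 7 were higher, 4 lower and 3 did not pass, with a median log2 fold change of 0.23. Beside them, 30.3% of all genes tested were higher and 27.1% lower. Mmp14, a membrane protease that can shed MUC1, was at 470 against 61.6 CPM, and Lgals3, a galectin that binds mucin sugars, at 587 against 90.6 CPM, 7.63-fold and 6.49-fold higher. Ackr3, a chemokine receptor reported to respond to TFF3, was at 12.6 against 0.0558 CPM, where the wild-type level came from 5 counts in replicate 1 alone. Erbb2, the partner of MUC4, did not pass, at 187 against 199 CPM, nor did Met and Adam10, while Erbb3, Mep1a, Mep1b and Cxcr4 were lower.

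**Figure D5:**
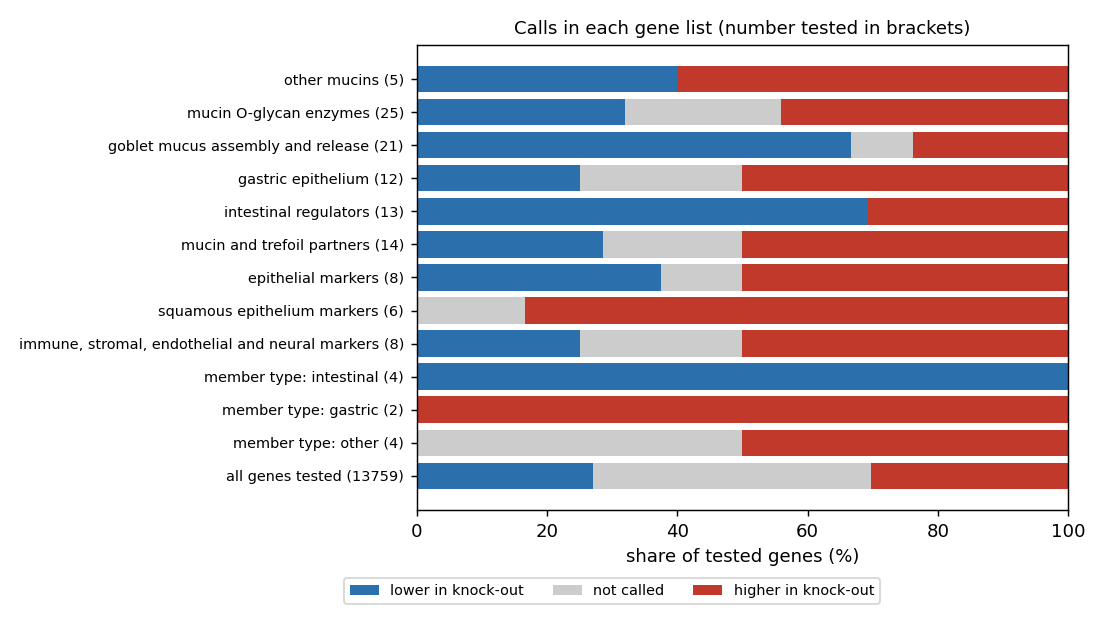
Share of the tested genes of each list (x axis, percent) called lower (blue), higher (red) or not called (grey) in the knock-out, with the number tested in brackets; the airway list, with 1 tested gene, is not drawn. The goblet list and the intestinal regulators are mostly blue, beside 27.1% blue and 30.3% red over all genes.

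Markers of cell types were read beside these results and beside all genes tested, of which 30.3% were higher and 27.1% lower. Of 8 epithelial markers, 4 were higher, 3 lower and 1 did not pass, and they summed to 7955 to 8576 CPM per wild-type library and 10390 to 12190 CPM per knock-out library. In both genotypes most of this sum came from Krt8, Krt18 and Krt19, which were higher in the knock-out. Epcam, Vil1 and Cldn7 were lower, and Cdh1 did not pass. Epcam was at 411 against 915 CPM, and Vil1, which names the Cre promoter, at 231 against 428 CPM. Krt20 and Krt19 were 12.7-fold and 2.69-fold higher. Of 6 tested squamous markers, 5 were higher, and they summed to 13.3 to 24.7 CPM per wild-type library and 1411 to 1472 per knock-out library, led by Sprr1a, while the basal cell factor Trp63 had 5 wild-type and 2 knock-out counts. Of 6 airway markers only Foxj1, the ciliated cell factor, could be tested, at 152 against 0.647 CPM, and the secretory genes Bpifa1, Bpifb1 and Scgb3a2 were at 0. Immune, stromal, endothelial and neural markers summed to 18.8 to 35.5 CPM per wild-type library and 25.7 to 26.0 per knock-out library; of 8 tested, 4 were higher, 2 lower and 2 did not pass, and Cd3e, Col3a1 and Pdgfrb were at 0. That sum hides members that moved in opposite directions. The smooth muscle actin gene Acta2 was lower in the knock-out, at 0.117 against 12.5 CPM, as was the receptor gene Kit, with 1 count against 376. The macrophage markers Csf1r (10.9 against 0.605 CPM) and Cd68 (11.9 against 3.71 CPM) were higher, as were Ptprc, with 39 counts against 2, and the collagen gene Col1a1, with 59 against 2. In bulk RNA, fewer cells of a type and less RNA per cell cannot be told apart, and the part of these markers in the mucin and trefoil differences was not tested.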

How the data were processed

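Gene-level RNA-seq counts of 6 mouse tumoroid libraries were analysed. Per the labels' protocols, stranded libraries were made from polyA-selected RNA, and STAR and the build GRCm38 are named per the submitters' processing notes. The STAR version, counting program, strand setting and annotation used are each not stated in the sources at hand. The authors deposited raw whole-number counts for each Ensembl gene. Libraries were grouped by genotype and replicate number in the labels. Symbols, coordinates and exon lengths came from GENCODE M21, which left 259 identifiers unmatched.

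The 10 members and all gene lists were chosen with earlier results of these data known. The main test was edgeR 4.0.16 (quasi-likelihood, robust, TMM scaling, filterByExpr with a minimum count of 10 and a minimum total of 15) in R 4.3.3, with Benjamini-Hochberg adjustment over 13759 genes. Standard errors came from the fitted negative binomial weights and the quasi-likelihood dispersion. At these depths 1 CPM is 20.7 to 31.7 counts per library. Bounds for a genotype at 0 used a floor of 3 counts summed over its libraries (0.0336 CPM in the knock-out, 0.0387 CPM in the wild type). The fitting code was tested on simulated data first. Alternatives used DESeq2 1.42.0, limma 3.58.1, other scalings and filters, a replicate block and each library left out; the legacy edgeR fit was chosen after seeing the data. Genes named were the members, every tested mucin, up to 3 genes per list with the smallest adjusted p and at least 5 CPM in the higher genotype, tested genes with starts within 100 kb of a member, the 3 genes nearest to Muc13 and to Tff1, the markers and Chuk. An item that meets this rule is not reported here.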

Additional observations from a re-analysis of the deposited data

How the results depend on the processing

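The number of genes called was 7896 and ranged from 6416 (adjusted p of 0.01) to 8899 (without knock-out replicate 2) over all alternatives run. The 4 members called lower kept that call in each of them. Of the members called higher there were 4, or 5 with Muc4 added when no filter was used, by limma voom and without wild-type replicate 2. Library size alone, upper-quartile scaling and DESeq2 size factors shifted the median of all genes by -0.005, -0.057 and -0.005 on the log2 scale. Of 1067 values for 67 further named genes, 1044 kept their side of the threshold, 20 lost the call and 3 gained it. Among values called in either fit, 0 changed direction. A change of sign without a call in either fit was not counted as a change. Among the list counts, the immune, stromal, endothelial and neural markers called higher went from 4 to 2 with a filter of 1 CPM in 3 libraries, which tests fewer genes. The replicate numbers were not taken to pair the libraries, since the labels do not say that they mark a shared mouse or batch. Deviations of same-numbered libraries correlated at 0.108, -0.11 and -0.19, which with 3 libraries per genotype cannot settle a pairing. With a replicate block 7444 genes were called, with 4 members lower and 4 higher. Depth limits Muc1, Muc2, Muc20 and the wild-type levels of Tff1 and Mucl3, which rest on few counts.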
